A study of Mus musculus with 8 samples.

Results

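The genes described here are the liver X receptors (LXRs), their dimer partner and the genes by which hepatocytes export cholesterol and remodel high-density lipoprotein (HDL). They are Nr1h2, Nr1h3, Rxra, Abca1, Abcg1, Abcg5, Abcg8, Mylip, Pltp and Lcat, taken by symbol from the gene count table, and all 10 were found among its 46078 genes. RNA-seq compared livers of 5 wild-type (WT) mice and 3 mice with Rbfox2 knockout (Rbfox2 KO), all given water with 30% (w/v) fructose for 22 weeks, a lipogenic diet, and fasted before the livers were taken. The mice were of C57BL/6J background and young adult when the diet began, and by the study's methods they were male unless otherwise stated there. WT mice carried Rbfox2 loxP/loxP alleles without Cre, and Rbfox2 KO mice carried the same alleles with Albumin-cre. The albumin promoter drives this Cre, which the study used to inactivate Rbfox2, a splicing regulator, selectively in hepatocytes. The comparison bears on whether genes of cholesterol efflux change when hepatocytes lose this regulator. The study raised efflux from cholesterol levels in plasma and liver. By qPCR it reported higher Abca1, Abcg8, Nr1h2 and Nr1h3 with RBFOX2 deficiency, while the difference in ABCA1 protein was not statistically significant. By RNA-seq on this diet it reported changes in cholesterol biosynthesis, the mevalonate pathway and the LXR pathway, among others.

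LXRα (Nr1h3) and LXRβ (Nr1h2) are nuclear receptors that bind oxysterols, oxidized forms of cholesterol, and act on DNA as heterodimers with the retinoid X receptor RXRα (Rxra). When sterols accumulate, they raise transcription of the ATP-binding cassette transporters that export cholesterol. ABCA1 loads cholesterol and phospholipid onto apolipoprotein A-I, ABCG1 exports cholesterol to formed HDL, and the ABCG5/ABCG8 heterodimer secretes sterols into bile. MYLIP, also called IDOL, is a ubiquitin ligase that sends the LDL receptor to degradation. PLTP transfers phospholipid between lipoproteins, and LCAT esterifies cholesterol on HDL.

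LXR–RXR dimers bind direct repeats spaced by 4 bases, the DR4 element, and promoter windows of RefSeq (250 bases before to 50 after a transcript start, build GRCm38.p6) were searched on both strands for the letters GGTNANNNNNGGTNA. A match was found in 1 of the members, Abca1, and in 0.719% of 32817 promoter windows. Of the members, 9 had a window there, 12 windows in all; Abcg1 had none. The Abca1 stretch, chr4:53159918-53159992 on the minus strand, is shown because it holds this element, with the match in capitals. The letters of the motif read on the opposite strand, and the match lies at -67 to -53 from the start.

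Abca1: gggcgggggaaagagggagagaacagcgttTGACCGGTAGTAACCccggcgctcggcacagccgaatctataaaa

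Abcg5 and Abcg8 lie head to head on chromosome 17 by 1 RefSeq start of each. The 109 bases between these starts are shown because they lie between the genes of the heterodimer. RefSeq gave 2 windows for Abcg8, and the other, chr17:84676052-84676351, lies within Abcg5. Whether the printed stretch drives both genes was not tested. The stretch is chr17:84683012-84683120 of GRCm38.p6, on the plus strand, which is the strand of Abcg8. Capitals mark 2 matches to AGATAA, a motif of GATA factors, both on the minus strand. AGATAA, searched on both strands with overlaps allowed, was held by 11.2% of the promoter windows.

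Abcg5-Abcg8: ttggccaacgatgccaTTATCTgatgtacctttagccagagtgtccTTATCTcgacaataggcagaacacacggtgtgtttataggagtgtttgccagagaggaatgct

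Total counts ran from 24829693 to 37823155 per sample, so that 3 counts, taken as the detection floor, equalled 0.0793 to 0.121 CPM (the count scaled by library size), and such floors cover counting error only. CPM values below use TMM factors, a trimmed-mean scaling between libraries, which ran from 0.821 to 1.29. Rbfox2, on chromosome 15 from 77078990 to 77307004 (minus strand), averaged 18.9 ± 3.39 CPM across WT livers (SD, n = 5) and 9.28 ± 2.84 CPM across Rbfox2 KO livers (SD, n = 3), with no overlap. The exact permutation test of the means, made two-sided by doubling the smaller tail, gave p = 0.0357. That is the smallest value 56 splits allow with this doubling. The fitted log2 difference was -1.03 ± 0.21 (SE), and its adjusted p was 0.328 by edgeR and 0.0019 by DESeq2. These are gene-level RNA counts, and by Western blot the study reported RBFOX2 protein as undetectable in livers of its knockout mice. The summed level of 9 hepatocyte markers was 77370 to 83110 CPM in WT and 71020 to 86400 CPM in Rbfox2 KO. Most of it was Alb, which averaged 56690 CPM in WT and 56450 CPM in Rbfox2 KO. Of the 9 markers, 6 were higher and 3 lower in Rbfox2 KO. Groups did not overlap for 1, Ass1 (927.2 to 1495 CPM in WT and 1535 to 2263 CPM in Rbfox2 KO), against 3.71% of all genes in either direction. Some libraries held transcripts of neighbouring tissues: 12 pancreatic exocrine genes summed to 447.8 CPM in Rbfox2 KO 1 and to 4.88 to 17.2 CPM in the other 7 samples, of which Amy2a5 (a pancreatic amylase) had 250.2 CPM and Cela1 (an elastase) 27.2 CPM in Rbfox2 KO 1. Likewise, 8 skeletal muscle genes summed to 196.4 CPM in Rbfox2 KO 1, 227.3 in WT 4, 321.5 in WT 5 and at most 40.6 CPM elsewhere. Of 6 enterocyte genes, 3 had no count in any sample and 1 was high enough to test. In whole liver, fewer cells of a type and less RNA per cell cannot be told apart.

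Of the LXR and efflux genes, 9 of 10 had overlapping levels in the 2 genotypes, and the exception was Pltp, which was lower in every Rbfox2 KO liver. All 10 passed the filter on low counts. By edgeR 0 of 10 passed an adjusted p of 0.05, against 0% of the 14654 genes tested, and 1 of 10, Pltp, had an unadjusted p under 0.05, against 4.74% of all genes in either direction and 2.33% for those lower in Rbfox2 KO. By DESeq2 1 of 10, again Pltp, passed an adjusted p of 0.05, against 0.404% of the genes to which it gave an adjusted p, and by limma-voom 0 did. Groups did not overlap for 1 of 10 members, against 3.71% of all genes, or 1.82% in the direction lower in Rbfox2 KO. The median log2 fold change of the members was -0.00619, against 0.000953 for all genes, with 6 members below and 4 above 0.

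**Figure D1:**
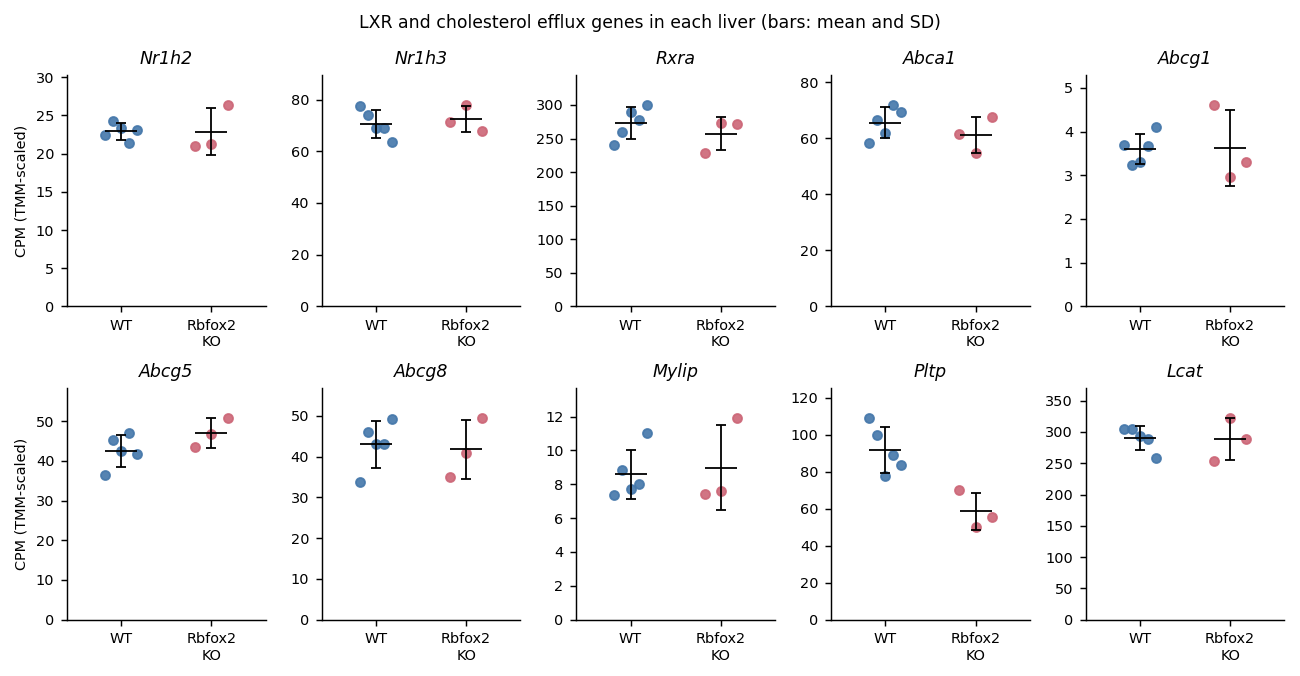
CPM (TMM-scaled, y axis from 0) of each gene in 5 WT and 3 Rbfox2 KO livers; each point is 1 liver, and bars give the mean and SD. The 3 Rbfox2 KO livers sit at 50.2 to 69.8 CPM for Pltp, below the lowest WT liver at 77.8 CPM, while for the other 9 genes the groups overlap.

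Pltp, the phospholipid transfer protein gene (ENSMUSG00000017754, chromosome 2 from 164839518 to 164857711, minus strand), had 108.9, 99.5, 77.8, 89.2 and 83.5 CPM in WT 1 to 5. In Rbfox2 KO 1 to 3 it had 69.8, 50.2 and 55.5 CPM. Every Rbfox2 KO liver was thus below every WT liver, and the gap between the groups was smallest between WT 3 and Rbfox2 KO 1. The means were 91.8 ± 12.5 CPM (SD, n = 5) and 58.5 ± 10.2 CPM (SD, n = 3), so that Rbfox2 KO had 63.7% of the WT level. The fitted log2 difference between genotypes was -0.65 ± 0.14 (SE), with a 95% interval of -0.97 to -0.33 and an unadjusted p of 0.00105 by the quasi-likelihood test of edgeR, which placed it 41st of the tested genes. After Benjamini-Hochberg adjustment over all genes the edgeR p was 0.373, and the DESeq2 p was 0.0102, so the call rests on the choice of test. Leaving out each sample in turn, DESeq2 called Pltp in 4 of 8 fits. It did not call the gene without WT 2 (adjusted p = 0.0942), WT 4 (0.0590), Rbfox2 KO 2 (0.121) or Rbfox2 KO 3 (0.148). Without Rbfox2 KO 1, the library highest in pancreatic transcripts, the DESeq2 adjusted p was 0.000425 and the log2 fold change -0.80. The edgeR adjusted p without this library was 0.490. With libraries scaled by their totals alone, the groups overlapped (63.9 to 108.0 CPM in WT, 47.3 to 89.7 CPM in Rbfox2 KO) and the log2 fold change was -0.51.

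Exons of Pltp overlap those of Ctsa, the cathepsin A gene on the opposite strand, over 495 bases, or 19.3% of the exonic bases of Pltp. Of the 50-base windows of its longest transcript, 14.2% also occur in Ctsa transcripts, and whether counting used strand was not stated. Ctsa had 75.8 to 85.0 CPM across WT livers and 82.8 to 91.1 CPM across Rbfox2 KO livers. Its log2 fold change was 0.14 ± 0.08 (SE), at an unadjusted edgeR p of 0.124. What the shared bases did to the counts of Pltp was not tested. Macrophages also make PLTP. The 9 Kupffer cell and macrophage markers summed to 249.5 to 306.7 CPM in WT and 266.1 to 364.7 CPM in Rbfox2 KO, with 8 of the 9 higher in Rbfox2 KO. Groups did not overlap for 1 of the 9, against 3.71% of all genes in either direction. It was Marco, with 9.02 to 13.4 CPM in WT and 18.5 to 30.9 CPM in Rbfox2 KO. The part of macrophages in the level of Pltp was not tested.

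The levels of all 3 receptor genes overlapped between the genotypes. Nr1h3 (chromosome 2 from 91184061 to 91202834, minus strand), the LXR of liver and macrophages, had 77.5, 73.8, 69.1, 68.9 and 63.5 CPM in WT 1 to 5. It had 71.4, 78.0 and 67.9 CPM in Rbfox2 KO 1 to 3. The groups overlapped, with a log2 fold change of 0.04 ± 0.10 (SE) and a 95% interval of -0.17 to 0.25. Nr1h2 (chromosome 7 from 44549616 to 44553951, minus strand), the broadly expressed LXR, had 21.4 to 24.3 CPM across WT livers, and 20.99, 21.2 and 26.4 CPM in Rbfox2 KO 1 to 3. Its log2 fold change was -0.00304 ± 0.10 (SE), with a 95% interval of -0.23 to 0.22. Here the WT livers were alike, with a coefficient of variation of 4.79% (3.74% of tested genes had a lower one), and no knockout liver lay inside their range, since Rbfox2 KO 3 was above it and Rbfox2 KO 1 and 2 were just below its lowest value of 21.4 CPM. Rxra (chromosome 2 from 27676440 to 27762957, plus strand) had 240.4 to 300.3 CPM across WT livers and 228.4, 272.4 and 271.3 CPM across knockout livers, a log2 fold change of -0.09 ± 0.11 (SE). Edges of its interval, -0.34 and 0.16, correspond to folds of 0.792 and 1.12. After adjustment over all genes the edgeR p was 1.0 for each receptor.

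Among the transporters of the HDL route, Abca1 (chromosome 4 from 53030787 to 53159895, minus strand), whose promoter stretch is printed above, had 58.2, 66.4, 61.9, 72.0 and 69.4 CPM in WT 1 to 5. It had 61.4, 54.8 and 67.5 CPM in Rbfox2 KO 1 to 3. Only Rbfox2 KO 2 was below the WT range, and the log2 fold change of -0.10 ± 0.11 (SE) had a 95% interval of -0.33 to 0.14. Abcg1 (chromosome 17 from 31057675 to 31117988, plus strand) was the least abundant member, with 75 to 147 counts per sample, and had 3.69, 3.23, 3.30, 3.67 and 4.11 CPM in WT 1 to 5. In Rbfox2 KO 1 to 3 it had 4.61, 2.95 and 3.30 CPM, so that the knockout livers held both the highest and the lowest value. Its 95% interval was -0.38 to 0.40.

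The biliary sterol transporter genes, whose stretch between 1 RefSeq start of each is printed above, were close to each other in CPM. Abcg5 (chromosome 17 from 84658234 to 84683011, minus strand) had 36.4, 45.1, 42.4, 47.1 and 41.8 CPM in WT 1 to 5. It had 43.4, 46.9 and 50.8 CPM in Rbfox2 KO 1 to 3, and the ranges overlapped. Of the members other than Pltp it had the fold change farthest from 0, 0.14 ± 0.10 (SE), with an interval of -0.09 to 0.37 and an unadjusted edgeR p of 0.194. Abcg8 (chromosome 17 from 84676302 to 84700333, plus strand) had 33.7, 46.1, 43.1, 43.0 and 49.2 CPM in WT 1 to 5. It had 34.9, 40.9 and 49.4 CPM in Rbfox2 KO 1 to 3, nearly the same span, and a log2 fold change of -0.04 ± 0.14 (SE). The lowest liver of each group was WT 1 for both genes in WT and Rbfox2 KO 1 for both in Rbfox2 KO. The annotated exons of the pair share 82 bases on opposite strands.

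Mylip (chromosome 13 from 45389742 to 45412022, plus strand) had 7.35 to 11.03 CPM across WT livers and 7.44, 7.63 and 11.9 CPM across knockout livers. Only 1 liver of each group, WT 5 and Rbfox2 KO 3, exceeded 10 CPM, and the log2 fold change of 0.07 ± 0.19 (SE) had the widest interval of the members, -0.35 to 0.48. It is also the most variable member among WT livers, with a coefficient of variation of 17.1%, against a median of 15.4% over all genes. Lcat (chromosome 8 from 105939551 to 105943382, minus strand), which hepatocytes secrete into plasma, had 304.6, 304.7, 294.3, 288.6 and 259.0 CPM in WT 1 to 5. It had 254.2, 322.2 and 288.7 CPM in Rbfox2 KO 1 to 3, above and below the WT range, and a log2 fold change of -0.00933 ± 0.11 (SE). Over the 9 members other than Pltp, the log2 fold changes ran from -0.10 to 0.14 and the 95% intervals lay between -0.38 and 0.48, which corresponds to folds of 0.769 to 1.40.

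**Figure D2:**
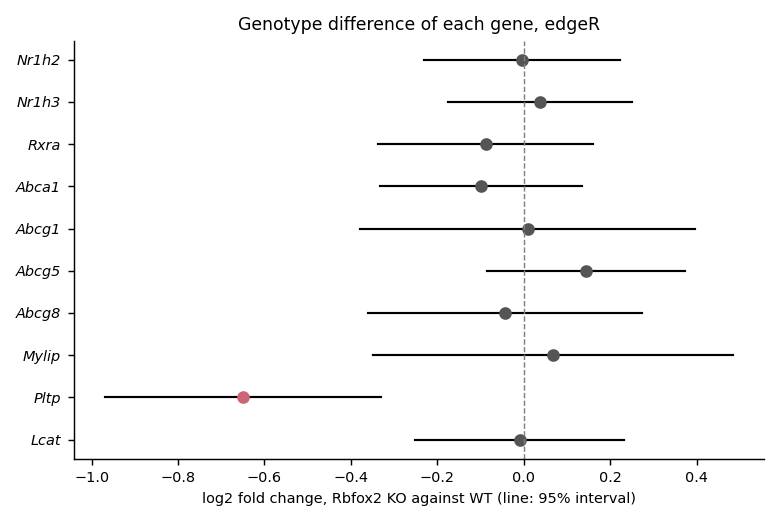
Log2 fold change of each gene in Rbfox2 KO against WT by edgeR (x axis), with lines for the 95% interval and a dashed line at 0. The interval of Pltp, -0.97 to -0.33, lies wholly below 0, and those of the other 9 genes include 0.

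Levels were then compared between genes after division by the annotated exon length, as CPM per kb. Lcat was highest, at 216.3 ± 13.97 CPM per kb (SD, n = 5) in WT. Rxra followed at 50.1 ± 4.38, Pltp at 35.8 ± 4.88, Nr1h3 at 28.1 ± 2.12, Abcg5 at 15.7 ± 1.501, Abcg8 at 11.5 ± 1.55, Nr1h2 at 6.84 ± 0.327, Abca1 at 6.33 ± 0.538, Mylip at 2.66 ± 0.455 and Abcg1 at 0.494 ± 0.0483 CPM per kb (SD, n = 5 each). Neighbours whose WT ranges overlapped were Pltp and Nr1h3, and Nr1h2 and Abca1. The other 7 neighbouring pairs kept their order in all 8 livers. Pltp was above Nr1h3 in 5 of 8 livers, namely the 5 WT livers, and below it in the 3 Rbfox2 KO livers, where Pltp had 22.8 ± 3.97 and Nr1h3 28.8 ± 2.04 CPM per kb (SD, n = 3). The exon length used for Pltp includes the bases shared with Ctsa, and whether counting there used strand was not stated.

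**Figure D3:**
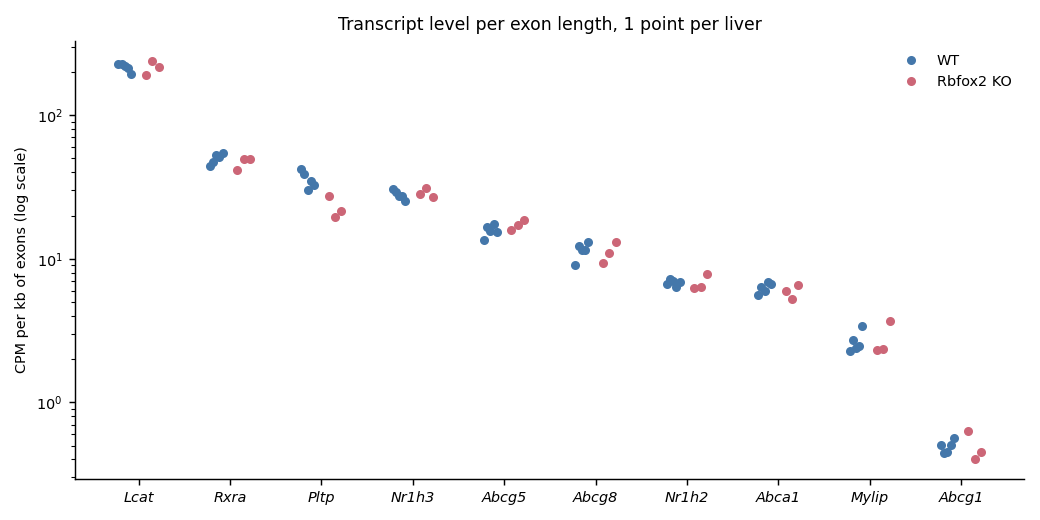
CPM per kb of annotated exons (log-scaled y axis) of each gene, ordered by WT mean, with 1 point per liver. Lcat stands at 216.3 and Abcg1 at 0.494 CPM per kb in WT, and the order of the means differs between the genotypes only in that Pltp and Nr1h3 change places.

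A set of 3 ratios within the family were compared, each taken per exon length and free of library scaling. The LXRα to LXRβ ratio (Nr1h3 to Nr1h2) was 3.66 to 4.60 in WT and 3.43 to 4.90 in Rbfox2 KO, so that Nr1h3 was the more abundant LXR transcript in every liver. On the log2 scale the groups differed by 0.05 (exact permutation test, two-sided, p = 0.821, and 0.821 adjusted over the 3 ratios). Abcg5 to Abcg8, the subunits of 1 heterodimer, stood at 1.49, 1.36, 1.36, 1.52 and 1.18 in WT 1 to 5. In the knockout livers it stood at 1.72, 1.58 and 1.42. The groups overlapped, with a log2 difference of 0.19 (exact permutation p = 0.143, adjusted p = 0.429). Abca1 to Abcg1 was 11.1 to 14.5 in WT and 9.37 to 14.4 in Rbfox2 KO, a log2 difference of -0.09 (exact permutation p = 0.607, adjusted p = 0.821).

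Covariation over the 8 livers was examined for 3 pairs in log2 CPM. Abcg5 and Abcg8 had a Pearson r of 0.60 (exact permutation p = 0.112, adjusted over 3 pairs 0.168) and a Spearman rho of 0.38 (exact permutation p = 0.360, adjusted 0.540). Without WT 1 and Rbfox2 KO 3, the samples farthest from the median of Abcg5, r was -0.17 (exact permutation p = 0.776, n = 6), over a narrower range of Abcg5. With each genotype centred on its own mean r was 0.79. That value is a description only, since values centred within groups cannot be freely permuted between them. Nr1h3 and Abca1, a receptor and its target, ran in opposite directions, with r = -0.79 (exact permutation p = 0.0222, adjusted 0.0667) and rho = -0.86 (exact permutation p = 0.0107, adjusted 0.0321). Without WT 5 and Rbfox2 KO 2, r was -0.64 (exact permutation p = 0.182, n = 6). This relation turned with the scaling, since with library totals alone r was 0.52 (exact permutation p = 0.184). Abca1 and Abcg1 had r = 0.27 (exact permutation p = 0.523, adjusted 0.523) and rho = 0.19 (exact permutation p = 0.665, adjusted 0.665), and r was -0.16 without WT 4 and Rbfox2 KO 2 (exact permutation p = 0.765, n = 6). For this pair library totals alone gave r = 0.86 (exact permutation p = 0.00516).

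**Figure D4:**
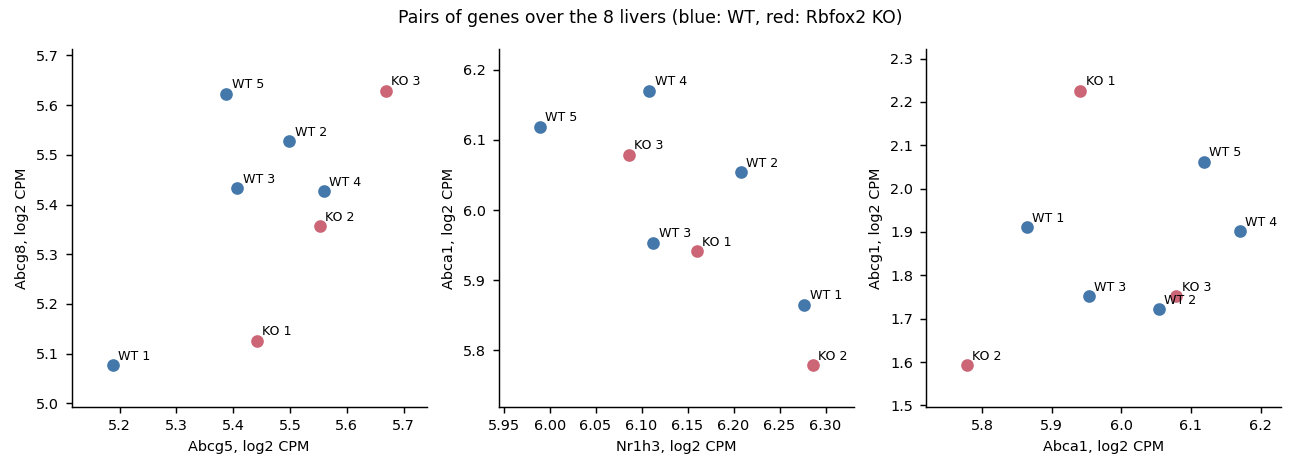
Log2 CPM of the genes of each pair (x and y axes) in 8 livers, WT in blue and Rbfox2 KO in red. Abcg8 is lowest in WT 1 and Rbfox2 KO 1; Abca1 falls from left to right along Nr1h3, with r = -0.79 (0.52 with library totals alone), and no line is seen for Abca1 and Abcg1.

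For each member the tested gene most like it across the 8 livers was also found, out of 14653, as the highest Pearson r of log2 CPM. These were Fbrsl1 for Nr1h2 (r = 0.97), Nkiras1 for Nr1h3 (0.99), Tmed8 for Rxra (0.97), Taf2 for Abca1 (0.95), Cdkn1a for Abcg1 (0.99), Vav2 for Abcg5 (0.98), Zc3h12c for Abcg8 (0.99), Slc43a3 for Mylip (0.99), Ccdc138 for Pltp (0.96) and C1rl for Lcat (0.99). No member had another member as its most similar gene, and Abcg8 came 1451st for Abcg5. With 8 points that share scaling factors, so high an r is a description only.

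Genes around the family were taken from 6 lists. Of 25 LXR targets, which include 7 of the members, 0 passed an edgeR adjusted p of 0.05 and 2 were lower at an unadjusted p under 0.05, Pltp and Srebf1, against 2.33% of all genes. Srebf1, the lipogenic transcription factor, had 31.3 to 49.5 CPM in WT and 24.1 to 30.7 CPM in Rbfox2 KO, with no overlap (1.82% of all genes were lower without overlap). With library totals alone the groups overlapped for Srebf1. Its log2 fold change was -0.50 ± 0.15 (SE, adjusted p = 0.809 by edgeR). Fasn, the fatty acid synthase gene, had -0.46 ± 0.22 (SE) and Cd36, a fatty acid uptake gene, had -0.40 ± 0.20 (SE), both with overlapping groups and an edgeR adjusted p of 1.0. The median of the list was -0.07, with 16 of 25 genes below 0; with library totals alone, which moved the median of all tested genes to 0.12, it was 0.04 with 7 below 0. By DESeq2, Pltp was the 1 gene of this list called.

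Of 22 partners and co-regulators of LXR, 0 reached an unadjusted p under 0.05, with a median log2 fold change of -0.00258. The smallest p values belonged to the corepressor Ncor1 (-0.17 ± 0.10 SE), the coactivator Ppargc1a (0.37 ± 0.24 SE) and the deacetylase Hdac3 (-0.15 ± 0.12 SE). Of 13 genes that make or clear oxysterol ligands, 10 were tested, and 2 were lower at an unadjusted p under 0.05, against 2.33% of all genes. Cyp46a1, the cholesterol 24-hydroxylase, had 4.08 to 6.5 CPM in WT and 1.35 to 3.74 CPM in Rbfox2 KO, without overlap (1.82% of all genes were lower without overlap). With library totals alone the groups overlapped for Cyp46a1. Its log2 fold change was -0.93 ± 0.29 (SE, edgeR adjusted p = 0.882). Dhcr7, a late enzyme of cholesterol synthesis, had -0.54 ± 0.17 (SE; edgeR adjusted p = 0.864), and Hsd3b7, of bile acid synthesis, had -0.21 ± 0.11 (SE). The list's median was -0.16, and Ch25h, the cholesterol 25-hydroxylase, was at most 0.345 CPM and not tested.

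Of 15 partners of HDL and efflux, 14 were tested, with a median of -0.04, and 1 was lower at an unadjusted p under 0.05, against 2.33% of all genes. It was Abca7, a relative of Abca1, with 5.10 to 6.74 CPM in WT and 3.83 to 4.96 CPM in Rbfox2 KO, without overlap (1.82% of all genes were lower without overlap). With library totals alone the groups overlapped for Abca7. Its log2 fold change was -0.38 ± 0.15 (SE, edgeR adjusted p = 0.954). Apom, an HDL apolipoprotein, had 0.24 ± 0.13 (SE) and Lipc, hepatic lipase, had -0.21 ± 0.15 (SE), both with overlapping groups. Among 17 genes of intracellular cholesterol storage and transfer 0 had an unadjusted p under 0.05, and the median was 0.06. The sterol carrier Stard3 was without overlap in the other direction, with 7.53 to 10.4 CPM in WT and 10.7 to 11.3 CPM in Rbfox2 KO. Of all genes, 3.71% were without overlap in either direction, and with library totals alone the groups overlapped for Stard3. Stard3 had a log2 fold change of 0.23 ± 0.12 (SE, edgeR adjusted p = 1.0). Its relative Stard4 had -0.52 ± 0.30 (SE), and Soat1, which esterifies cholesterol, had 0.25 ± 0.19 (SE).

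Sterol biosynthesis supplies the cholesterol from which oxysterols are made. All 21 genes of this list had a log2 fold change below 0, with a median of -0.51 (20 of 21 with library totals alone, the exception being Ebp), and 15 of 21 were lower at an unadjusted p under 0.05, against the 2.33% of all genes given above. By edgeR 0 of 21 passed an adjusted p of 0.05 and by DESeq2 7 did, all lower, against 0.404% of all genes by DESeq2 in either direction. Mvd, mevalonate diphosphate decarboxylase, had -1.502 ± 0.23 (SE; edgeR adjusted p = 0.138), Hmgcs1, HMG-CoA synthase, had -0.89 ± 0.16 (SE; 0.254) and Fdps, farnesyl diphosphate synthase, had -1.17 ± 0.22 (SE; 0.289). The cholesterol exporters Abca1, Abcg1, Abcg5 and Abcg8 overlapped between the genotypes in the same livers.

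**Figure D5:**
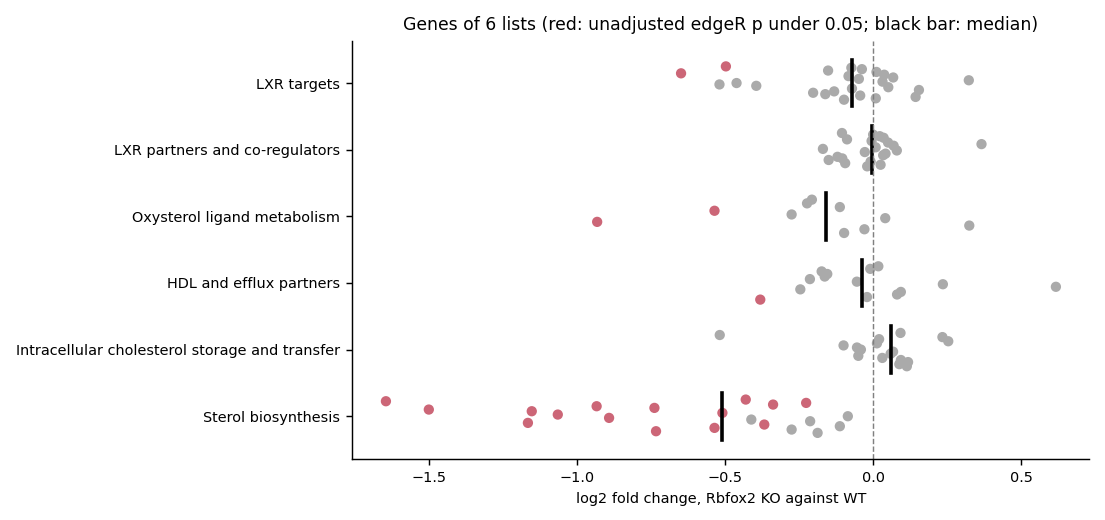
Log2 fold change in Rbfox2 KO against WT by edgeR (x axis) of the tested genes of 6 lists, 1 point per gene, red where the unadjusted p was under 0.05, with a black bar at each list's median. With TMM scaling the 21 sterol biosynthesis genes all lie below 0 with a median of -0.51 (20 of 21 with library totals alone), and the 25 LXR targets have a median of -0.07.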

How the data were processed

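The deposited values were raw read counts per Ensembl gene, made by the authors from poly(A)-selected paired-end libraries that were aligned as strand-specific to GRCm38 with TopHat2 (2.0.11 in the submitters' processing notes) and counted with featureCounts. Whether counting used strand was not stated. DESeq2 and an edgeR-voom-limma route are both named in the methods, without saying which served here.

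Symbols, positions and exon lengths came from GENCODE M21. Genes were filtered with filterByExpr (14654 left), scaled by TMM and tested with the robust quasi-likelihood test in edgeR 4.0.16 (R 4.3.3); the model held genotype alone, and p-values were adjusted by Benjamini-Hochberg. SE is the log2 fold change over the square root of F. Alternatives were DESeq2 1.42.0, limma-voom 3.58.1, other scalings and filters, the sample number as a block and leaving out each sample. DESeq2 without each sample was added after the data were seen. Single values were tested by exact permutation over 56 splits in scipy 1.17.1, and log2 CPM used a prior count of 2. Fits were tested on simulated data.

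The members and lists were chosen with earlier results of these data known. Named genes were the 10 members, Rbfox2, the 3 non-member genes with the smallest unadjusted p of each list, the gene most like each member, and the markers of a list that stood apart in a library. Ctsa, Marco, Alb, Ass1 and Ch25h were named after their values were seen. Replicates of a group differed by more than sampling noise (chi-square per degree of freedom 45.5 to 346.2). The labels number samples without naming mice, so p-values measure the spread between samples.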

Additional observations from a re-analysis of the deposited data

How the results depend on the processing

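Pltp stayed below 0 in 17 alternatives (the DESeq2 fits without each sample are given above), from -0.80 to -0.51, and passed an adjusted p of 0.05 only in the DESeq2 Wald test (other adjusted p 0.272 to 0.997). The count of members past the threshold was 0 by edgeR (1 at an unadjusted p under 0.05) and 1 by DESeq2, and stayed 0 in every other alternative. By DESeq2 the count of all genes past it went from 0 (694 unadjusted) to 59, of LXR targets from 0 to 1 and of sterol biosynthesis genes from 0 to 7. Without a filter on low counts 6 genes passed, 1 of them a sterol biosynthesis gene, and at an adjusted p of 0.1 1 gene passed. The causes were not tested.

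Scaling by library totals alone shifted the all-gene median to 0.12 (from 0.000953), and 5 directions turned: Nr1h2 (0.10), Rxra (0.00814), Abca1 (0.0124), Abcg8 (0.0402) and Lcat (0.0923). Nr1h2 also turned with upper-quartile scaling (0.00195) and without a filter (0.0102), as did Lcat without a filter (0.00304) and Abcg1 by limma-voom (-0.00603). None was near the threshold.

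The labels do not say whether the sample numbers shared by the groups pair samples. Deviations from the group means of same-numbered samples correlated at 0.163, 0.0484 and 0.170. Those of different-numbered samples correlated at -0.412 to 0.371, so these few values cannot decide whether the numbers pair samples. With the replicate block 0 genes passed (739 unadjusted), Nr1h3 (-0.0218) and Abcg8 (0.0251) turned, and Pltp had -0.70 (adjusted p = 0.392).

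Leaving out each sample in turn, Nr1h2 ran from -0.12 to 0.0503, Nr1h3 from -0.0193 to 0.0814, Rxra from -0.137 to -0.0151, Abca1 from -0.176 to -0.0252, Abcg5 from 0.0834 to 0.193, Abcg1 from -0.209 to 0.133, Abcg8 from -0.185 to 0.0647, Mylip from -0.191 to 0.183 and Lcat from -0.0969 to 0.0679 on the log2 scale. The log2 difference ran from -0.0549 to 0.202 for the Nr1h3 to Nr1h2 ratio and from -0.213 to 0.0979 for Abca1 to Abcg1. Pearson r ran from 0.240 to 0.789 for Abcg5 and Abcg8 (lowest without WT 1), from -0.860 to -0.685 for Nr1h3 and Abca1, and from -0.134 to 0.554 for Abca1 and Abcg1 (highest without Rbfox2 KO 1). With library totals alone r was 0.738, 0.522 and 0.857 for these pairs, and centring on genotype gave 0.786 for Abcg5 and Abcg8. Counts were lowest for Abcg1, at 75 to 147 per sample.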
